A study of Homo sapiens with 4 samples.

Results

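The serpins are serine protease inhibitors, and alpha-2-macroglobulin (A2M) is a broad protease trap of another fold. The genes described here are those whose symbols are SERPIN followed by a clade letter from A to I and a number, together with A2M and its relative A2ML1. They number 37 of 39519 genes in the table, 35 serpins and 2 genes of the A2M pair. The study asked about PURB and the long noncoding RNA HOTAIR in transcription that depends on p53. The libraries came from U2OS, an established human osteosarcoma line. In the sh-PURB group (n = 2), a short hairpin RNA against PURB was induced with doxycycline at 5 µg/ml for 72 h. PURB is a protein that binds purine-rich single strands of DNA and RNA. The sh-NC control group (n = 2) received DMSO, so hairpin and doxycycline cannot be told apart in any difference below. The labels do not say whether the libraries of a group came from separate cultures, so the p-values cover no more than library-to-library spread, which may be technical.

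An inhibitory serpin offers its target protease a reactive loop as bait. Cleavage of the loop springs the serpin into a more stable shape that drags the protease along and destroys its active site, so each molecule acts once. A2M instead is cut in a bait region and closes around the protease, and the complex is cleared through the receptor LRP1. Serpins of clade B mostly stay inside cells, and those of the other clades are mostly secreted or sit in the secretory pathway. A few members, such as SERPINH1, SERPINF1 and SERPINB5, have lost protease inhibition and serve as chaperone or signalling proteins. Liver cells are a main source of the plasma serpins of clade A and of A2M, and bone and other mesenchymal cells are known to make SERPINE2, SERPINF1 and SERPINH1.

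The values were TPM, each gene's length-scaled share of the transcripts in a library; this unit carries no record of how many reads were behind it, so depth is unknown. PURB, the target of the hairpin, stood at 2.46 and 2.69 TPM in sh-PURB, against 5.29 and 6.55 TPM in sh-NC (limma adjusted p = 0.102, exact two-sided permutation p = 0.333, the smallest that 2 libraries against 2 allow). Over all 14269 tested genes, limma called 41 (0.287%) at its adjusted threshold of 0.05, of which 29 were lower in sh-PURB and 12 (0.0841% of those tested) higher. The higher ones were 29.3% of the calls, and 43.3% of 60 when TPM were recomputed without the most abundant and the mitochondrial genes, a step that moved the median difference of all genes from -0.06 to 0.08 on the log2 scale. Of the markers listed for osteoblasts or osteosarcoma, VIM, RUNX2 and COL1A1 passed 1 TPM in every library, and ALPL, SP7, BGLAP and COL1A2 were below 1 TPM in every library. Of the 37 members, 14 reached the filter of 1 TPM in at least 2 libraries and were tested, and 7 were listed at 0 in all 4 libraries.

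A2M and 3 secreted serpins, SERPINA1, SERPINA3 and SERPINE2, had mean TPM lower by 2.80-fold to 13.6-fold in sh-PURB. Their sh-PURB libraries lay wholly below their sh-NC libraries. This held for 9 of the 14 tested members, SERPINH1 included, and for 29.3% of all tested genes. The count was 8 of 13 without SERPINI1, whose direction the filter had fixed. SERPINA1 was the only member called by limma over all genes. A2M and SERPINE2 lay just above the threshold, and SERPINA3 further above it. The collagen chaperone SERPINH1, the most abundant member in both groups, and the pigment epithelium-derived factor SERPINF1 differed by less than 1.2-fold. No member was called higher.

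A2M, which traps proteases of all classes, was at 1.37 and 1.95 TPM in sh-PURB, against 16.1 and 29.1 TPM in sh-NC. The groups were far apart, and the sh-NC libraries also differed widely from each other. Its mean was 1.66 ± 0.406 TPM in sh-PURB and 22.6 ± 9.21 TPM in sh-NC (SD, n = 2 each), which is 7.35% of control. The difference in log2(TPM + 1) was -3.10 with a standard error of 0.309 and a 95% interval of -3.90 to -2.30. Of the 14269 tested genes, A2M had the third lowest difference, at rank 3. Its limma adjusted p was 0.0517, so it missed the threshold over all genes. This p was 0.00202 when protein-coding genes alone were fitted. Of all settings tried, that fit called the most genes (415, against 41 in the fit over all genes). A2M lies on chromosome 12 (9067664 to 9116229, minus strand, GRCh38, GENCODE v29), and the antisense gene A2M-AS1 overlaps one end of it. A2M-AS1 was at 0.730 and 1.05 TPM in sh-PURB and at 0.969 and 1.06 TPM in sh-NC, and strand-specific counting was not given in the sources used here. In bulk libraries, fewer cells that carry a transcript and less of it per cell cannot be told apart.

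SERPINA1, which encodes alpha-1 antitrypsin, the main inhibitor of neutrophil elastase in plasma, was at 11.04 and 13.04 TPM in the sh-PURB group, against 49.0 and 54.9 TPM in the sh-NC libraries. Both groups were tight, and the gap between them was several times their spread. SERPINA1 fell by 2.02 on the log2(TPM + 1) scale (SE 0.135, 95% interval -2.37 to -1.67), to 23.2% of control (limma adjusted p = 0.0457). It was 1 of 14 tested members called lower, where 0.203% of all tested genes were called lower. The call ended without any of the 4 libraries in turn (adjusted p = 0.106 to 0.243), in fits that have 1 residual degree of freedom. It also ended with a pseudocount of 0.1 (0.0565), with no filter (0.185) and without the intensity trend (0.064), while the difference stayed between -2.13 and -1.91 in all of these.

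SERPINA3, which encodes antichymotrypsin, an acute phase inhibitor of cathepsin G, was at 1.06 and 1.21 TPM in sh-PURB, against 6.85 and 3.51 TPM in sh-NC. The sh-NC libraries differed 2-fold between themselves, and both were above both sh-PURB libraries. The difference in log2(TPM + 1) was -1.48 (SE 0.306, 95% interval -2.27 to -0.69), and the limma adjusted p was 0.130 over all genes and 0.0324 among protein-coding genes alone. SERPINE2, which encodes protease nexin, an inhibitor of thrombin and of the plasminogen activators, was at 10.4 and 10.7 TPM in sh-PURB, against 33.1 and 25.9 TPM in sh-NC. The sh-PURB libraries were nearly equal, at 35.8% of the control mean. SERPINE2 had a difference of -1.39 in log2(TPM + 1) (SE 0.155, 95% interval -1.79 to -0.99) and a limma adjusted p of 0.0533 over all genes, or 0.00757 among protein-coding genes alone.

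**Figure D1:**
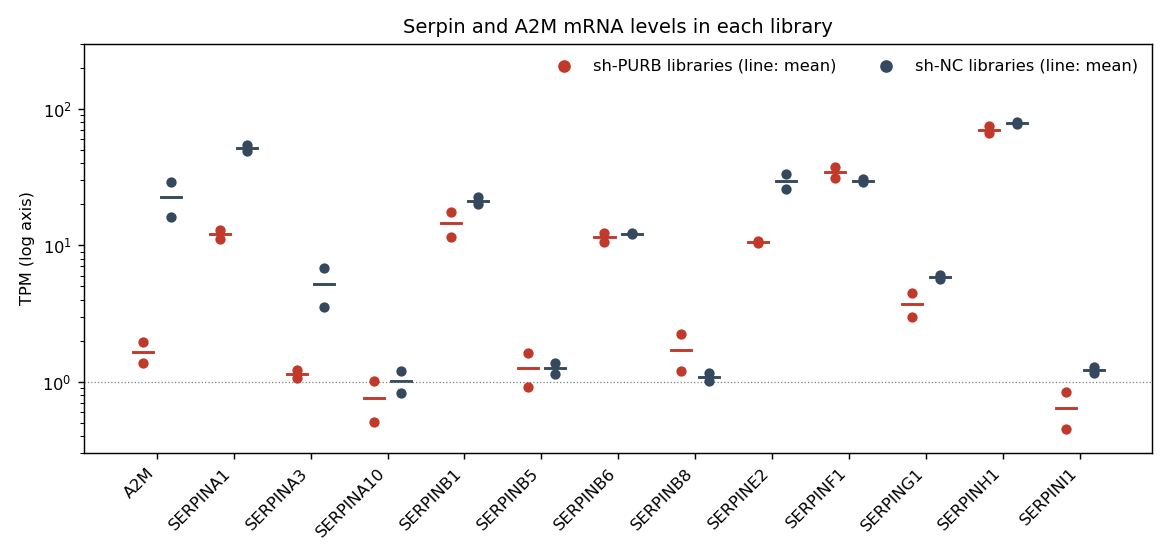
TPM of 13 tested members in each library, on a log axis, with sh-PURB to the left of sh-NC for each gene. Points are libraries, short lines are group means and the dotted line is 1 TPM. A2M, SERPINA1, SERPINA3 and SERPINE2 show wide gaps between the groups, while SERPINH1, SERPINF1 and SERPINB6 lie close together.

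The stretches before the transcription starts of these genes are shown to let the regulatory sequence of the low members be read beside that of SERPINH1, whose level differed little. RefSeq entries (GRCh38.p14) were found for 28 of the 37 members and 10 of the 14 tested ones; A2M, SERPINF1 and SERPING1 are named only. Each line gives the 250 bases before 1 start, 5′ to 3′, and capitals mark matches, on either strand, to 7 motifs.
SERPINA1 upstream start, chr14:94390636-94390885, minus strand: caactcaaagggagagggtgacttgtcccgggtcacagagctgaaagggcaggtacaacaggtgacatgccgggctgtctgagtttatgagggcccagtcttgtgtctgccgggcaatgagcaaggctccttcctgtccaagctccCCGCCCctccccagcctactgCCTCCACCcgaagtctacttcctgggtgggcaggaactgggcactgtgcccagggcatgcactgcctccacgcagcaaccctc
SERPINA1 downstream start, chr14:94388603-94388852, minus strand: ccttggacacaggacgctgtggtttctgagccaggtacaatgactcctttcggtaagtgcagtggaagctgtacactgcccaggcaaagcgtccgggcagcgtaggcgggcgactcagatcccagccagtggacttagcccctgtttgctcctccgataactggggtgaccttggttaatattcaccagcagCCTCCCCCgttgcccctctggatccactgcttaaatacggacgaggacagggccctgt
SERPINA3, chr14:94612141-94612390, plus strand: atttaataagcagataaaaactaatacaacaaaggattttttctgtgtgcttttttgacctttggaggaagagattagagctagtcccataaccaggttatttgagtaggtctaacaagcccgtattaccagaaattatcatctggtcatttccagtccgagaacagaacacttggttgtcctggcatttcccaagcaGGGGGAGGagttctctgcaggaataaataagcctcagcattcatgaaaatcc
SERPINE2 downstream start, chr2:224031479-224031728, minus strand: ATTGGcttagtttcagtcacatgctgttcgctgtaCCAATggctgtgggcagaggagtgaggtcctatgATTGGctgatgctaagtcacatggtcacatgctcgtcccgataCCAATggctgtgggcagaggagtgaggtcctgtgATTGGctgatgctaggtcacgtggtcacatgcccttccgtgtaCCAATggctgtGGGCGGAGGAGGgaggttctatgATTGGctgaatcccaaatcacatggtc
SERPINH1 upstream start, chr11:75562003-75562252, plus strand: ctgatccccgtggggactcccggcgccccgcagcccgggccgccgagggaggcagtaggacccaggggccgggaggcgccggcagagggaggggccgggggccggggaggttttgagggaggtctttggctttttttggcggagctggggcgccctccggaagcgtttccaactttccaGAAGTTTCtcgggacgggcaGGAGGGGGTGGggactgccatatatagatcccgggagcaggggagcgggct
The motifs searched were the letters TATAAA for the TBP-binding box and, for the factor NF-Y, CCAAT. They also included GGGCGG for the Sp1 box, TGANTCA for AP-1 and TTCNNNGAA for STAT factors. The last were GAANNTTC for the heat shock element, bound by HSF1, and GGNGGNGG, since PUR proteins are known to bind purine-rich repeats of this kind. The downstream start of SERPINE2 had 7 NF-Y matches, alternating between strands, in a stretch whose letters recur within the window. At least 1 match is held by 32% of 35116 windows of this length before all annotated starts. Windows with 7 were not counted, so this share is no background for that number. A purine-rich repeat match stood in the 5 windows printed, as in 49.1% of all windows. SERPINE2 and SERPINH1 each have 1 more annotated start, not printed, whose windows held 0 such repeats; that of SERPINE2 also held 0 NF-Y matches and that of SERPINH1 0 heat shock elements. In the printed SERPINE2 window the purine-rich repeat overlaps the Sp1 box. The SERPINH1 window held 1 heat shock element, 71 bases before the start, a motif present in 5.78% of all windows. None of the 5 windows held the TBP-binding, AP-1 or STAT letters, which are found in 10.7%, 6.57% and 6.57% of all windows. A match describes letters, and nothing here measures whether a factor was bound.

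Of the serpins of clade A, 3 of 11 were tested. SERPINA10, which encodes an inhibitor that acts on coagulation factor X together with protein Z, was at 0.506 and 1.02 TPM in sh-PURB and at 0.819 and 1.19 TPM in sh-NC. Its groups overlapped, and the 95% interval of its log2 difference ran from -0.89 to 0.50 (limma adjusted p = 0.788). Of the 11, 10 lie in 1 cluster on chromosome 14, from SERPINA10 at 94280455 to the end of SERPINA3 at 94624055 (GRCh38, GENCODE v29). SERPINA1 (94376747 to 94390693, minus strand) lies between SERPINA2 and SERPINA11, and SERPINA3 closes the cluster on the plus strand. The genes on either side of SERPINA1 were near 0: SERPINA2 stood at 0 in both sh-PURB libraries and at 0 and 0.0342 TPM in sh-NC, and SERPINA11 was listed at 0 in all 4. SERPINA6, the corticosteroid carrier, and SERPINA5, the protein C inhibitor, stayed under 0.17 TPM in every library. SERPINA4, SERPINA9 and SERPINA12 were listed at 0 throughout, and SERPINA7, the thyroxine carrier on chromosome X, was above 0 in only 1 sh-NC library.

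Genes next to the low members were compared, chosen by position alone. On the far side of SERPINA3, GSC, untested and under 1 TPM in every library, was at 0.0553 and 0.0924 TPM in sh-PURB. In sh-NC it was at 0.356 and 0.575 TPM. Its sh-PURB libraries lay wholly below its sh-NC libraries, as for 29.3% of all tested genes. Next to it, DICER1 was at 11.4 and 11.2 TPM in sh-PURB and at 9.75 and 8.88 TPM in sh-NC (limma adjusted p = 0.411). Beside A2M, KLRG1 was at 1.10 times control and M6PR at 1.14 times control. PZP, a close relative of A2M, was listed at 0 in 3 libraries, and KLRB1 at 0 in every library. Beside SERPINE2, on chromosome 2 (223975112 to 224039319, minus strand), MRPL44 was at 1.16 times control, CUL3 at 0.935 times and WDFY1 at 0.918 times. FAM124B, untested, was at 0.0189 and 0.0657 TPM in sh-PURB and at 0 and 0.0425 TPM in sh-NC. None of these tested neighbours was called by limma.

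Of the relatives of SERPINE2 in clade E, SERPINE3 was above 0 in 1 sh-PURB library alone, at 0.0319 TPM. The plasminogen activators, targets of SERPINE2, were not called: PLAU, the urokinase, was at 15.1 and 8.41 TPM in sh-PURB and at 7.91 and 6.90 TPM in sh-NC (limma adjusted p = 0.427), and PLAT, the tissue plasminogen activator, at 35.2 and 43.2 TPM in sh-PURB and at 47.2 TPM in both sh-NC libraries (limma adjusted p = 0.410). PLAU and PLAT were chosen for this link and not by the rule for named genes.

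The intracellular clade B had 4 of 13 members tested, and 0 were called by limma. At an unadjusted limma p below 0.05 there were also 0 of the 4, where 15.3% of all tested genes were. SERPINB1, an inhibitor of neutrophil proteases, was at 11.5 and 17.6 TPM in sh-PURB, against 20.02 and 22.6 TPM in sh-NC. The groups did not overlap, and the mean was 68.5% of control (limma adjusted p = 0.343, 95% interval of the log2 difference -1.11 to 0.03). SERPINB6, which inhibits cathepsin G and other serine proteases in the cytosol, was at 10.5 and 12.4 TPM in sh-PURB and at 12.1 and 12.2 TPM in sh-NC. SERPINB5, or maspin, a non-inhibitory member known as a p53 target, was at 1.62 and 0.914 TPM in sh-PURB and at 1.14 and 1.38 TPM in sh-NC. The groups overlapped for both. SERPINB5 had a mean TPM at 101% of control. The log2 differences were -0.09 for SERPINB6 and -0.01 for SERPINB5, and their signs turned after TPM were recomputed (0.06 and 0.10); that of SERPINB5 also turned under median-ratio rescaling (0.04), quantile normalization (0.07) and with protein-coding genes alone (0.02). SERPINB8, known to inhibit furin, was at 2.22 and 1.19 TPM in sh-PURB, against 1.16 and 1.00 TPM in sh-NC (limma adjusted p = 0.597). SERPINB8 overlaps HMSD on the same strand, so its value is uncertain.

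Among clade B genes below the filter, SERPINB4 and SERPINB7 came nearest to it. SERPINB4 was at 0.208 and 0.103 TPM in sh-PURB, against 0.991 and 1.25 TPM in sh-NC. Its near-identical neighbour SERPINB3 was at 0.189 and 0.0506 TPM in sh-PURB and at 0.264 and 0.589 TPM in sh-NC. Reads of this pair, the squamous cell carcinoma antigens, can be split between them, so their sum is safer: 0.397 and 0.153 TPM in sh-PURB, against 1.25 and 1.84 TPM in sh-NC. SERPINB7 was at 3.29 and 0.971 TPM in sh-PURB, against 0.273 and 0.982 TPM in sh-NC. Its sh-PURB replicate 1 stood far above the other 3 libraries, which span 0.273 to 0.982 TPM. The other 7 clade B genes below the filter, SERPINB2, SERPINB3, SERPINB9, SERPINB10, SERPINB11, SERPINB12 and SERPINB13, were under 0.6 TPM in every library.

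The remaining clades had 1 tested member or none. SERPING1, which encodes the C1 inhibitor of complement and of plasma kallikrein, was at 2.96 and 4.48 TPM in sh-PURB, against 5.69 and 6.02 TPM in sh-NC. The groups did not overlap, and the difference in log2(TPM + 1) was -0.56 (SE 0.208, limma adjusted p = 0.315). SERPINI1, which encodes neuroserpin, an inhibitor of tissue plasminogen activator, was at 0.446 and 0.834 TPM in sh-PURB, against 1.29 and 1.16 TPM in sh-NC (limma adjusted p = 0.452). SERPINI1 reached 1 TPM in the sh-NC libraries alone, so it was bound to lie lower once it had passed the filter. Its relative SERPINI2 was not tested, at 0.0604 and 0 TPM in sh-PURB and at 0 and 0.0624 TPM in sh-NC.

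SERPINH1, or HSP47, binds procollagen in the endoplasmic reticulum and was the most abundant member in both groups. It was at 66.3 and 74.9 TPM in sh-PURB, against 77.1 and 80.5 TPM in sh-NC, and the groups missed each other by about 2 TPM. The difference in log2(TPM + 1) was -0.16 with a 95% interval of -0.43 to 0.11 (limma adjusted p = 0.545). SERPINF1, a secreted factor that restrains blood vessel growth and is active in bone, was at 31.3 and 37.8 TPM in sh-PURB, against 30.5 and 29.2 TPM in sh-NC. SERPINF1 and SERPINB8 were the 2 tested members whose sh-PURB libraries both lay above both sh-NC libraries. The interval of the SERPINF1 difference ran from -0.14 to 0.54 (adjusted p = 0.546 in limma). SERPINF2, the inhibitor of plasmin, stayed under 0.3 TPM, and SERPINC1 (antithrombin) and SERPIND1 (heparin cofactor) were listed at 0 in all 4 libraries. A2ML1 was at 0.122 and 0.135 TPM in sh-PURB and at 0.426 and 0.147 TPM in sh-NC.

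**Figure D2:**
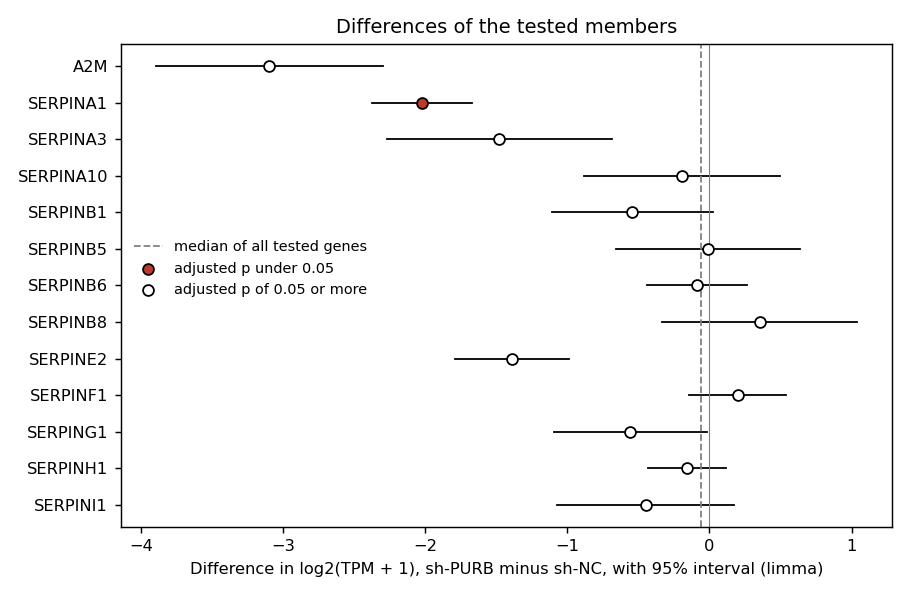
Difference in log2(TPM + 1), sh-PURB minus sh-NC, for 13 tested members by clade, with the 95% interval from limma. The filled point marks SERPINA1, the member called over all genes, the dashed line is the median of all tested genes (-0.06), and the intervals of A2M, SERPINA3 and SERPINE2 also lie wholly below it.

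Counted over the tested members, 9 of 14 had their sh-PURB libraries wholly below their sh-NC libraries, where 29.3% of all tested genes did. These include SERPINI1, whose direction the filter had fixed, and without it the count was 8 of 13. In the other direction, 2 of 14 were higher without overlap, where 18.6% of all genes were. At an unadjusted limma p below 0.05, 5 members were lower, where 9.53% of all genes were, and 0 were higher, where 5.77% of all genes were (15.3% in either direction). Differences of -1 or lower on the log2 scale were seen in 4 members, where 2.66% of all genes had one, and differences of 1 or higher in 0, where 1.96% had one. SERPING1 was the lower member at the unadjusted level beside A2M, SERPINA1, SERPINA3 and SERPINE2. The median log2 difference of the 14, SERPINI1 included, was -0.37, against -0.06 for all tested genes. These counts describe the members that passed the filter, and 23 members that did not are outside them. The members were chosen with earlier results of these data known, so the counts are no independent evidence. When protein-coding genes were fitted by themselves with their sums equalised, A2M, SERPINA1, SERPINA3 and SERPINE2 were called lower, 4 of 14 members, where 2.15% of 11928 genes were, and 0 were called higher, where 1.33% were (3.48% in either direction).

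**Figure D3:**
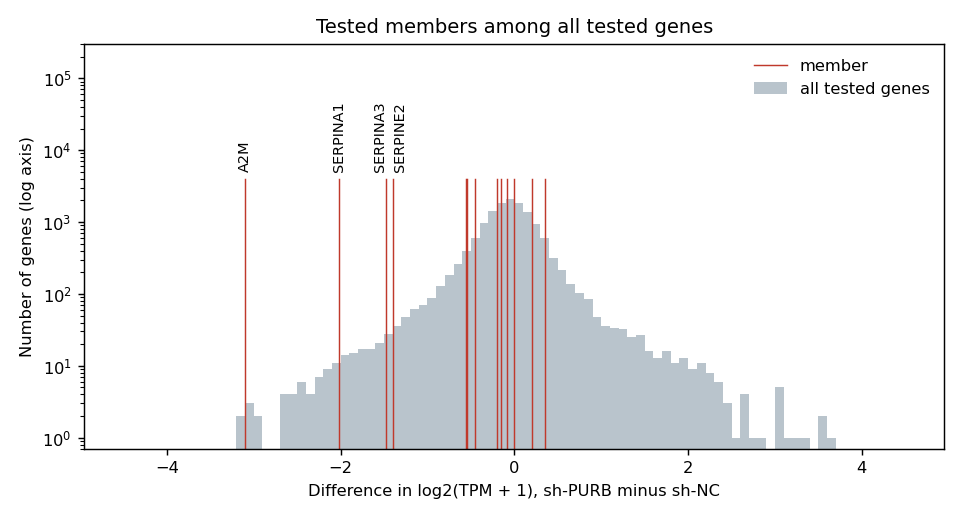
Number of tested genes, on a log axis, by difference in log2(TPM + 1), sh-PURB minus sh-NC, in steps of 0.1 (grey), with 13 tested members as red lines. A2M (-3.10) and SERPINA1 (-2.02) lie in the thin lower tail, SERPINA3 and SERPINE2 next to each other nearer the bulk, and the other 9 members within it.

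Summed over all 37 members, the level was 163 and 187 TPM in the sh-PURB libraries, against 266 and 282 TPM in the sh-NC libraries. The clades gave unequal parts of this gap. Clade A summed to 12.7 and 15.5 TPM in sh-PURB, against 56.9 and 59.9 TPM in sh-NC. Clade B came closer, at 29.9 and 33.4 TPM in sh-PURB and 36.5 and 40.2 TPM in sh-NC. Within the summed level, SERPINA1 made up 6.76% and 6.97% in the sh-PURB libraries, against 18.4% and 19.4% in the sh-NC libraries. SERPINH1 made up 40.6% and 40.01% in sh-PURB, against 28.99% and 28.5% in sh-NC. By mean TPM, the order in sh-PURB was SERPINH1, SERPINF1, SERPINB1, SERPINA1, SERPINB6 and SERPINE2, with SERPINB1, SERPINA1, SERPINB6 and SERPINE2 overlapping or nearly so in their libraries. In sh-NC it was SERPINH1, SERPINA1, SERPINF1, SERPINE2, A2M and SERPINB1, where SERPINE2 overlapped both SERPINF1 and A2M, and SERPINB1 lay inside the range of A2M.

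**Figure D4:**
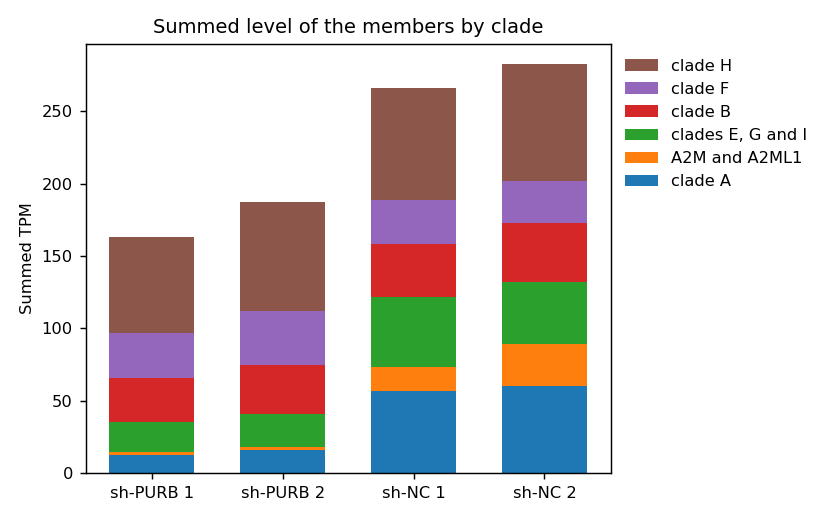
Summed TPM of all members in each library, stacked by clade (clades E, G and I together), with the sh-PURB libraries on the left. The stacks reach 163 and 187 TPM in sh-PURB and 266 and 282 TPM in sh-NC, and clade A and the A2M pair are among the parts that differ most.

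RNA composition and traces of other cell types were set beside these differences. Short structured RNAs (RMRP, RPPH1, RN7SK, RN7SL1 and RN7SL2) made up 63.2% to 65.2% of the sh-PURB libraries and 59.4% to 62.2% of the sh-NC libraries. With TPM recomputed without the most abundant and mitochondrial genes, the log2 difference was -3.33 for A2M, -1.93 for SERPINA1, -1.70 for SERPINA3 and -1.29 for SERPINE2. Recomputing raised the remaining values against the 1 added before the log, so these differences are not on the same scale as those above. Hepatocyte markers (ALB, APOA1, TTR, FGB and TF) summed to 0.310 and 0.741 TPM in sh-PURB and to 0.413 and 0.533 TPM in sh-NC, with TTR and FGB listed at 0 in all 4 libraries. The 5 immune markers summed to 0.783 and 1.26 TPM in sh-PURB, against 1.56 and 3.99 TPM in sh-NC. LYZ alone gave 2.11 TPM of the last value, and the part of immune transcripts in the low serpins was not tested. Endothelial markers summed to under 1 TPM in each library, and epithelial markers to 6.29 and 4.41 TPM in sh-PURB and 5.59 and 4.67 TPM in sh-NC.

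Genes around the serpins were then described from lists of proteases, receptors and other inhibitors. Of 18 tested proteases, most of them known serpin targets, limma called 0 over all genes, and at the unadjusted 0.05 level 8 were lower and 1 was higher. Over all tested genes these shares were 9.53% lower and 5.77% higher. The protein-coding fit called 2 of the 18 lower, PRSS23 and HTRA1, where 2.15% of all its genes were. PRSS23, a secreted serine protease, was at 0.257 and 0.844 TPM in sh-PURB, against 7.67 and 7.87 TPM in sh-NC (limma adjusted p = 0.0501). It reached 1 TPM in the sh-NC libraries alone, so the filter had fixed its direction. Without it, 7 of 17 proteases were lower at the unadjusted level, and HTRA1 was the only protein-coding call. HTRA1, a secreted serine protease of the matrix, was at 1.71 and 3.21 TPM in sh-PURB, against 14.5 and 19.7 TPM in sh-NC (limma adjusted p = 0.0545). C1S, the complement protease that SERPING1 inhibits, was at 46.7% of control (adjusted p = 0.177 in limma). The lysosomal protease CTSB was at 126% of control (limma adjusted p = 0.159). The median log2 difference of the 18, PRSS23 included, was -0.29, against -0.06 for all tested genes.

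Of 21 tested receptors and cofactors, limma called 0, with 3 lower and 2 higher at the unadjusted 0.05 level. Over all tested genes these shares were 9.53% lower and 5.77% higher. The protein-coding fit called 1 lower, ITGB3, where 2.15% of all its genes were. The median log2 difference of the 21 was 0.005. LRP1, which clears A2M and serpin complexes, was at 3.79 and 8.20 TPM in sh-PURB and at 3.70 and 9.01 TPM in sh-NC, so the libraries of each group differed more than the groups. ITGB3, an integrin subunit that pairs in the vitronectin receptor, was at 0.4995 and 0.917 TPM in sh-PURB, against 4.85 and 4.84 TPM in sh-NC (limma adjusted p = 0.0545). PROCR, the protein C receptor, was at 150% of control and VLDLR, a receptor of the LDL receptor family, at 207% of control. LRP1B was at 19.1% of control. ITGB3 and LRP1B reached 1 TPM in the sh-NC libraries alone, so their direction was fixed by the filter. ITGB3 was the only protein-coding call of this list, so that call does not stand apart from the filter. Without ITGB3 and LRP1B, 1 of 19 was lower at the unadjusted level. Limma adjusted p-values of PROCR, VLDLR and LRP1B lay between 0.154 and 0.249.

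The relatives of A2M had 4 of 7 members tested, of which limma called 0. At the unadjusted 0.05 level 1 was lower and 0 were higher (9.53% and 5.77% of all tested genes). Complement C3, which shares the thioester fold of A2M, was at 2.27 and 4.33 TPM in sh-PURB, against 8.67 and 11.4 TPM in sh-NC (limma adjusted p = 0.128). CD109, the membrane-anchored relative, was at 76.8% of control, and C4B and C4A, near-identical copies whose reads can be split between them, at 40.7% and 150% of control. C4B also passed the filter through the sh-NC libraries alone. The protein-coding fit called 1 of the 4 lower, C3, where 2.15% of all its genes were. Among 14 tested inhibitors of other families, limma called 1 lower, TIMP1, where 0.203% of all tested genes were. TIMP1, an inhibitor of metalloproteinases, was at 31.1% of control (limma adjusted p = 0.0374). TFPI, the inhibitor of the tissue factor pathway, was at 144% of control, the cystatin CSTA at 335% and TIMP2 at 68.3% (limma adjusted p = 0.129 to 0.278). The protein-coding fit called TIMP1 lower and TFPI higher, 1 each way, where 2.15% and 1.33% of all its genes were. The median difference of these 14 was -0.19. Of the 14, 1 reached 1 TPM in the sh-NC libraries alone, so its direction was fixed by the filter.

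Partners of SERPINH1 in collagen folding had 19 of 19 members tested, of which limma called 0. At the unadjusted 0.05 level 6 were lower and 1 was higher (9.53% and 5.77% of all tested genes). The protein-coding fit called 2 lower, P4HA1 and P4HA2, and 1 higher, FKBP9, where 2.15% and 1.33% of all its genes were. The peptidyl-prolyl isomerase FKBP9 was at 99.2 and 93.5 TPM in sh-PURB, against 48.9 and 49.5 TPM in sh-NC (limma adjusted p = 0.0501). The collagen prolyl hydroxylases P4HA1 and P4HA2 were at 58.3% and 56.6% of control, and the lysyl hydroxylase PLOD2 at 58.4% (limma adjusted p = 0.0831 to 0.130). Of 18 heat shock genes driven by HSF1, as SERPINH1 is known to be, limma called 0, and the protein-coding fit also called 0. In each direction 1 reached the unadjusted 0.05 level, where 9.53% of all tested genes did so lower and 5.77% higher. FKBP4 was at 136% of control, DNAJB1 at 76.3%, HSPA1B at 82.1% and HSPA1A at 79.7%. The median difference was -0.19 for the collagen partners and 0.15 for the heat shock genes.

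Of 20 tested genes that respond to TGF-beta or belong to its pathway, limma called 1 lower, TGFBI, where 0.203% of all tested genes were. At the unadjusted 0.05 level 11 were lower and 1 was higher, against 9.53% and 5.77% of all tested genes. The median difference of the 20 was -0.94. The protein-coding fit called 10 lower and 0 higher, where 2.15% and 1.33% of all its genes were. This list, like the others, was chosen with earlier results of these data known, so its counts are no independent evidence. FN1 was at 17.1% of control, ID1 at 28.4% and the feedback gene PMEPA1 at 30.7%. Of 10 tested genes of the acute phase and of STAT3 or NF-kB, limma called 0 over all genes, with 5 lower and 0 higher at the unadjusted 0.05 level (9.53% and 5.77% of all tested genes), and the protein-coding fit called 3 lower and 0 higher (2.15% and 1.33% of all its genes). NFKBIA, the NF-kB inhibitor, was at 12.98 and 12.4 TPM in sh-PURB, against 29.9 and 26.8 TPM in sh-NC (limma adjusted p = 0.0525). CXCL8, a chemokine, was at 5.25 and 2.95 TPM in sh-PURB, against 17.2 and 11.1 TPM in sh-NC (limma adjusted p = 0.117). C3, given above among the relatives of A2M, is also in this list, and the 3 protein-coding calls were NFKBIA, CXCL8 and C3. IL6ST, the shared receptor chain of the IL6 family, was at 73.5% of control (adjusted p = 0.241 in limma), and the median difference of the 10 was -0.51.

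**Figure D5:**
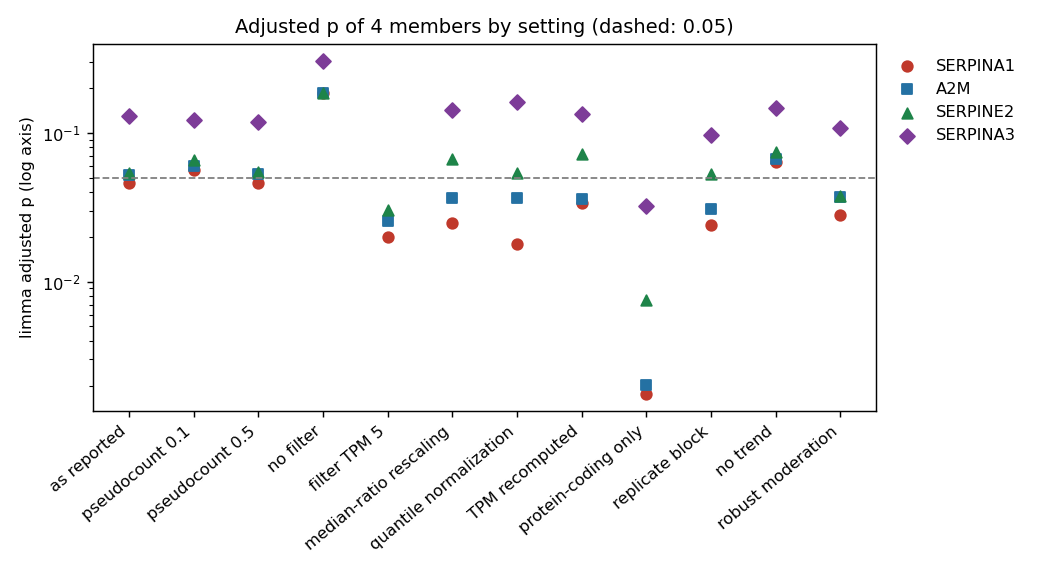
Adjusted p from limma, on a log axis, for SERPINA1, A2M, SERPINE2 and SERPINA3 as reported and under 11 other settings, with the threshold of 0.05 dashed. SERPINA1 lies between 0.00175 and 0.185 and A2M close to it in most settings, and SERPINA3 passes only with protein-coding genes alone (0.0324).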

How the data were processed

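RNA-seq libraries of U2OS cells, 2 sh-PURB and 2 sh-NC, were grouped by their titles. The authors deposited TPM, 1 value for each gene symbol and library. Tools named in the submitters' processing notes are kallisto 0.44.0, bcl2fastq 2.19, DESeq2 and sleuth, and the builds named are GRCm38 and GRCh38; the notes as held here give none of them a role. The annotation release, the strand setting and the use of the mouse build are not given in the sources used here. The all-samples table was used, and its columns hold the same values as the tables of single libraries. Columns sum to 977570 to 981061. A row with a blank name (0.921% to 1.66% of a library) was left out.

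Genes reaching 1 TPM in 2 or more libraries were tested on log2(TPM + 1), two-sided, by limma 3.58.1 (R 4.3.3) with an intensity trend; p-values were adjusted by Benjamini-Hochberg across every tested gene, with 0.05 as threshold. This scale understates changes of low genes. Residual degrees of freedom were 2, to which moderation added 2.92. Ratios are of mean TPM. In 20 simulations of this sh-PURB and sh-NC comparison (14269 genes, 200 changed), 54.8% of 4-fold and 7.2% of 2-fold changes in TPM + 1 were called. Of the simulated calls, 5.06% were false. Genes were simulated independently of each other, with the observed spread of each gene taken as its true one. The false share therefore need not hold for the calls in the data. For low genes the simulated folds are not the same folds in TPM.

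The members and lists were chosen with earlier results of these data known. Tested members were named, except 1 that is not reported here, as is 1 marker, and from each list up to 4 tested genes with the smallest p and any called over all genes. Gene types and positions came from GENCODE v29 (GRCh38), and promoter sequences from RefSeq. Alternatives were other pseudocounts, filters, scalings, moderation and gene sets, the replicate number as a block, and leaving out each library. Python 3.11.15 and matplotlib 3.10.9 drew the figures.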

Additional observations from a re-analysis of the deposited data

How the results depend on the processing

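The count of all genes called by limma (41) became 0 with a pseudocount of 0.1, with no filter and without the intensity trend, 121 with a filter at TPM 5, 80 after median-ratio rescaling, 118 after quantile normalization, 415 with protein-coding genes alone and 125 with robust moderation. The count of members called (1, SERPINA1) became 0, 0 and 0 in the first 3 of these. It was 3 of 9 tested with the filter at TPM 5 (A2M, SERPINA1 and SERPINE2), where 1.41% of all genes were called. A2M reached 5 TPM in the sh-NC libraries alone, so that filter had fixed its direction. The count was 2 after median-ratio rescaling, quantile normalization or recomputed TPM (A2M and SERPINA1), 4 with protein-coding genes alone and 3 with robust moderation. Leaving out 1 library gave 0 calls for all genes and 0 for the members in each of the 4 cases, from 41 and 1, in fits with 1 residual degree of freedom, where the lone library is assumed to vary like the other group. Replicate numbers give 2 pairs, which the labels do not explain, and the deviations of same-numbered libraries correlated at 0.193 across 14269 genes. With the replicate number as a block, 118 genes and 2 members (A2M and SERPINA1) were called.

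PURB passed with protein-coding genes alone (difference -0.906, limma adjusted p = 0.0313). Signs turned for members whose difference was near 0. SERPINB5 went from -0.01 to 0.0403 after median-ratio rescaling, 0.0721 after quantile normalization, 0.0988 with recomputed TPM and 0.0203 with protein-coding genes alone, and ran from -0.236 to 0.218 over the fits that left out 1 library. SERPINB6 was at 0.0563 with recomputed TPM. Over the fits that left out 1 library, SERPINB6 ran from -0.192 to 0.0171 and SERPINA10 from -0.405 to 0.016, both above 0 without sh-PURB replicate 1. A2M, SERPINA1, SERPINA3 and SERPINE2 stayed below 0 in each setting tried; without 1 library, A2M ran from -3.51 to -2.69 and SERPINA3 from -1.88 to -1.08. SERPINA3 and other members under 5 TPM have no value with the filter at TPM 5. The cause of these shifts was not tested. TPM keep no depth, so no counting error could be given for low members.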
